A study of Drosophila melanogaster with 6 samples.

Results

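Short, isolated regions enriched for ubiquitylated histone H2B (H2Bub) were followed across 3 chromatin immunoprecipitation (ChIP) replicates of late *Drosophila melanogaster* embryos. The embryos were of the wild-type strain Oregon-R, aged 14 to 16 h, and the antibody was NRO3 against H2Bub. The series has 3 ChIP and 3 input samples, 1 stage, 1 strain and no treatment, and its labels assign each input to the ChIP sample of the same replicate number. Whole embryos were used, so a region may carry the mark in many cell types or in few. The authors deposited 1 list of enriched regions for each ChIP replicate and 1 list for the replicate set, called the combined list here. The labels do not say whether separate embryo collections were used for the replicates, so the spread between them may be technical.

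A region was a member when it lay in the combined list on arm 2L, 3L or 3R, outside the 2 Mb nearest the centromere, and was narrower than 5000 bp. It also had to overlap a region in at least 2 of the 3 replicate lists by 1 bp, with gaps of at least 8000 bp to the previous and the next combined region. This gave 150 members among the 5802 regions of the combined list. There were 66 members on 3R, 49 on 3L and 35 on 2L, and together they spanned 448 kb, which was 1.19% of the bases in the combined list. The members were therefore chosen by measured values, the widths and gaps of the combined list and the overlap with the replicate lists. These values are given as a description, with no p.

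H2Bub is a single ubiquitin placed on the carboxy-terminal tail of histone H2B by the ligase Bre1 with its partner Rad6. It is known as a mark of transcribed gene bodies, where it accompanies elongating RNA polymerase II and precedes methylation of histone H3 by Set1 and Dot1 (Grappa in the fly), and it is removed by the SAGA-bound enzyme Nonstop. In a compact genome such as that of the fly, marked genes often lie close together, and a region of enrichment can hold several of them. Gene names are not given for the members, since coordinates are on FlyBase genome release 5 and the gene table at hand is on release 6.

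The members were short but not the shortest of the isolated calls. On the 3 arms outside the proximal windows lay 3253 combined regions, of which 388 had both gaps of at least 8000 bp. Of these 388, 152 were 5000 bp or wider and 236 were narrower. Among the 236, the 150 members had been found in at least 2 replicate lists, 46 regions in 1 list and 40 regions in no list. Over all 3253 regions, 76.1% lay in at least 2 replicate lists, a share that depended on width. Whatever their gaps, 1291 of the 2057 regions under 5000 bp did so, and 1185 of the 1196 of 5000 bp or more. The members had a median width of 2944 bp, from 1451 to 4944 bp. The isolated regions found in 1 list had a median width of 1728 bp and those found in no list 1355 bp. Both sets left out by the overlap were therefore narrower, and a wide region meets an overlap of 1 bp more easily.

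Isolation was about as frequent among short regions as among wide ones. Of the 1291 short regions in at least 2 lists, 11.6% were isolated by the 8000 bp rule. Of the 1185 regions of 5000 bp or more in at least 2 lists, 12.7% were. No test was made of this difference, since the gaps were part of the rule.

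The distances to the nearest neighbours covered a wide range. The smaller of a member's 2 gaps had a median of 14.5 kb, from 8.08 to 90.9 kb, and the larger gap a median of 32.3 kb, up to 458 kb. In 44 members both gaps were at least 20 kb, and in 8 members both were at least 50 kb. The larger gap was under 2 times the smaller in 72 members and over 4 times in 24, so many sat near the middle of an uncalled stretch and some near one end of it. Bases outside the lists did not pass the authors' threshold, which does not show that the mark was absent there.

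The 5 members with the largest smaller gap were 3L from 17232255 to 17235640, 3L from 9963850 to 9967429, 2L from 15333407 to 15336405, 3R from 8042128 to 8045991 and 3R from 25140991 to 25145424. The first lay 90.9 and 95.2 kb from its neighbours and was called in all 3 replicates, with replicate regions of 2956, 3362 and 3621 bp and scores of 0.757, 0.906 and 1.10. The other 4 had smaller gaps of 68.6, 60.8, 60.7 and 57.8 kb and were also called in all 3 replicates. The mean score ranks of the 5 were 65.2%, 17.4%, 66.9%, 79.0% and 56.8%, where 100% is the highest score of a list, so the most distant members were not the highest scoring. The score is a number the authors deposited with each region; no source used here defines it, and differences of scores were taken only within a list.

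The 3 replicates did not score these 5 alike. The 2L member ranked at 67.9%, 66.8% and 66.1% of the scores in replicates 1, 2 and 3. The 3L member from 9963850 ranked at 41.6%, 8.55% and 1.95%, and its replicate regions measured 2145, 2098 and 3328 bp. Its widest call, in replicate 3, thus had the lowest rank.

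At the thresholds, the member with the least isolation was 3R from 14731879 to 14735130, 8.08 kb from its next neighbour, and the nearest region left out by the gap was 2L from 8672799 to 8676983, at 7974 bp. The first scored 0.823, 1.11 and 1.18 in replicates 1, 2 and 3, and the second 0.478, 0.781 and 0.618. The widest member, 2L from 2677588 to 2682531, measured 4944 bp, and the nearest region left out by width was 3L from 10356447 to 10361453, at 5007 bp. The widest member had no region in replicate 1 and scored 0.701 and 0.598 in replicates 2 and 3, while the region left out scored 1.92, 2.24 and 1.78 in replicates 1, 2 and 3. The narrowest member, 3R from 12295727 to 12297177, was 1451 bp wide, was missing from replicate 1 and scored 0.432 and 0.337 in replicates 2 and 3. The last short region of 3R, from 27889757 to 27894348, had a neighbour on 1 side only and was not counted as a member.

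The gaps of the combined list were mostly also present in the replicates' own lists, which the rule had used for the overlap. The replicate region on a member was itself at least 8000 bp from both neighbours of its own list for 127 of 130 members called in replicate 1, 139 of 145 in replicate 2 and 120 of 130 in replicate 3. This was 95.3% ± 2.74 of the called members (SD, n = 3), and the share was lowest in replicate 3, at 92.3%. Since the combined list stands for the same replicates, the rule largely fixes this share. Around the midpoint of the combined region, 88.0% ± 6.93 of the members were called at the midpoint itself, 60.7% ± 8.67 at 1 kb to the left and 62.9% ± 6.34 at 1 kb to the right (SD, n = 3). At 2 kb the shares were 11.8% ± 3.01 to the left and 12.7% ± 2.91 to the right (SD, n = 3).

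Calls were sparse at larger distances too, in a direction that the choice by gap sets. From 10 to 20 kb away, on average 14.3% ± 1.20 of the positions around members were called, against 40.2% ± 3.41 around short chained regions (SD, n = 3). For the wider members the nearest of these positions still fall in the required gap. Many others lie inside the members' own gaps in the combined list, which were at least 20 kb on both sides in 44 members. The share is thus in part a second measure of the gaps. Chained regions are the 241 short regions that met the same rule on arm, width and overlap but had both gaps under 2000 bp. They are the set against which the members are compared below, because they have much the same width and differ in spacing. Their median width was 2824 bp.

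**Figure D1:**
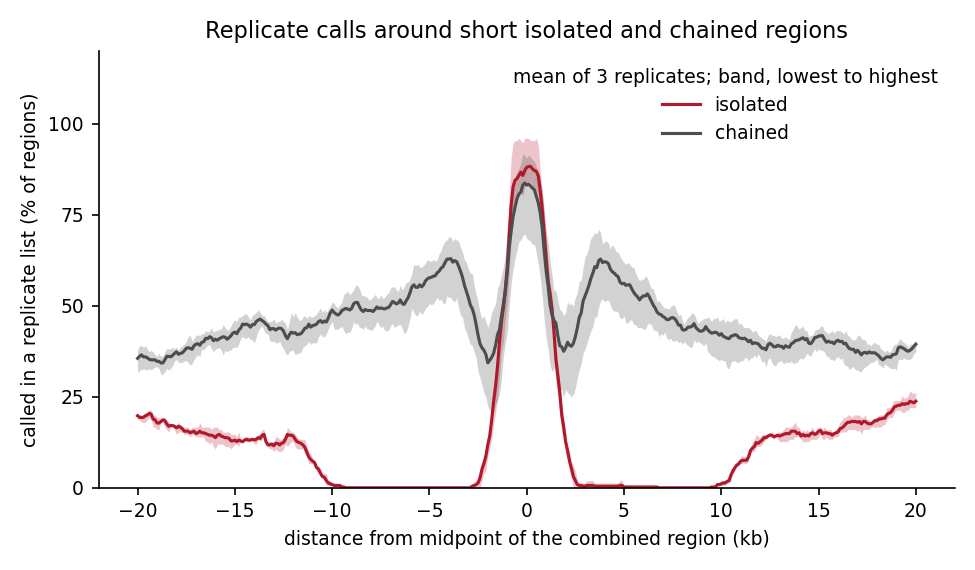
Share of regions called in a replicate list (y axis, percent) by distance from the midpoint of the combined region (x axis, kb), for 150 isolated and 241 chained regions; lines are means of 3 replicates and bands run from the lowest to the highest replicate. Isolated regions stand at 88.0% at the midpoint with almost no calls from 3 to 8 kb on either side, while chained regions have neighbours on both sides.

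Most members were found in every replicate. Of the 150, 105 (70.0%, 95% Wilson interval 62.2% to 76.8%) overlapped a region in all 3 lists. Among all 1291 short regions in at least 2 lists the share was 70.3%, and among all 3253 regions of any width or support it was 63.4%. The members' share was close to the first, and nothing particular to isolation is read from it. It was 62.7% of the 241 chained regions (56.4% to 68.5%). The intervals treat regions as independent and cover counting error only.

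The 45 members found in only 2 lists were narrower and scored lower than the 105 in 3 lists. Their median width was 2062 bp, against 3159 bp, and their median combined score 0.401, against 0.597. Replicates 1 and 3 lacked 20 members each and replicate 2 lacked 5. Of the 20 missing from replicate 1, 19 scored below the list median of replicate 2 and all 20 below that of replicate 3. Of the 20 missing from replicate 3, 19 scored below the list median in replicate 1 and 19 in replicate 2. Among all called members, only 32.3%, 31.7% and 39.2% were above the list median in replicates 1, 2 and 3. A score below the median was thus the more common among members as a whole.

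The share of regions missing from each list was also taken for the chained set. Replicate 1 lacked 13.3% of the members and 28.2% of the chained regions, replicate 2 lacked 3.33% and 4.98%, and replicate 3 lacked 13.3% and 4.15%. For the 900 other short regions, not chained, the shares were 17.3%, 3.33% and 7.00% in replicates 1, 2 and 3. Replicate 1 lacked the most chained regions, and replicates 1 and 3 lacked the most members, in equal number. These shares depend on the overlap the rule asked for and were not tested.

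Replicate scores placed the members in the lower part of each list, with a few high ones. The lowest, median and highest scores of the members were 0.225, 0.583 and 1.51 in replicate 1 (130 members), 0.196, 0.685 and 1.87 in replicate 2 (145 members) and 0.322, 0.687 and 1.74 in replicate 3 (130 members). The medians of all regions in these lists were 0.674, 0.810 and 0.779. Members above their list's median were 34.4% ± 4.18 of those called, against 34.8% ± 4.04 of the other 900 short regions that met the rule except for the gaps and were not chained (SD, n = 3). A low score was thus shared with other short regions. Among the members, 6, 4 and 3 members stood in the top 10% of the lists of replicates 1, 2 and 3.

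The 5 members with the highest mean rank were picked by their replicate ranks, so their high scores follow from the choice. The first was 3R from 25416916 to 25421777, 4862 bp wide, with scores of 1.51, 1.87 and 1.74 in replicates 1, 2 and 3. These placed it at 96.7%, 95.9% and 97.0% of the lists. Its gaps were 26.4 and 22.8 kb, so a high score occurred far from any other region.

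The next 4 were 3L from 7644648 to 7648524, 3R from 24406633 to 24411530, 3L from 11598452 to 11603205 and 3R from 16675495 to 16678622. Their mean ranks lay between 89.9% and 90.7%, and their smaller gaps were 12.2, 11.7, 10.9 and 10.4 kb. The last was 3128 bp wide, near the middle of the members' widths, and scored 1.29, 1.503 and 1.38 in replicates 1, 2 and 3. None of the 5 was on 2L. The member whose rank differed most between replicates was 3L from 7905046 to 7908259, which ranked at 1.83%, 40.4% and 56.4% with replicate regions of 1883, 2125 and 3102 bp.

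Among members, wider calls had higher scores, while scores were nearly unrelated to distance. Spearman's rho between width and score of the replicate region was 0.813, 0.814 and 0.766 over the 130, 145 and 130 members of replicates 1, 2 and 3. Among chained regions the same rho was 0.767, 0.724 and 0.743 in replicates 1, 2 and 3, so the relation was not particular to members. Between the smaller gap and the score of the members, rho was 0.0498, 0.0303 and 0.0202. Both are correlations across regions of 1 library, which are not replicates, and no p was computed. The members fell into groups of 62, 44 and 44 with a smaller gap of 8 to 12 kb, 12 to 20 kb, and 20 kb and over. Within replicates 1, 2 and 3, the median score of the third group minus that of the first was -0.0185, 0.0720 and 0.0112, with an average of 0.0216 ± 0.0461 (SD, n = 3). The sign was not the same in the 3 replicates.

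**Figure D2:**
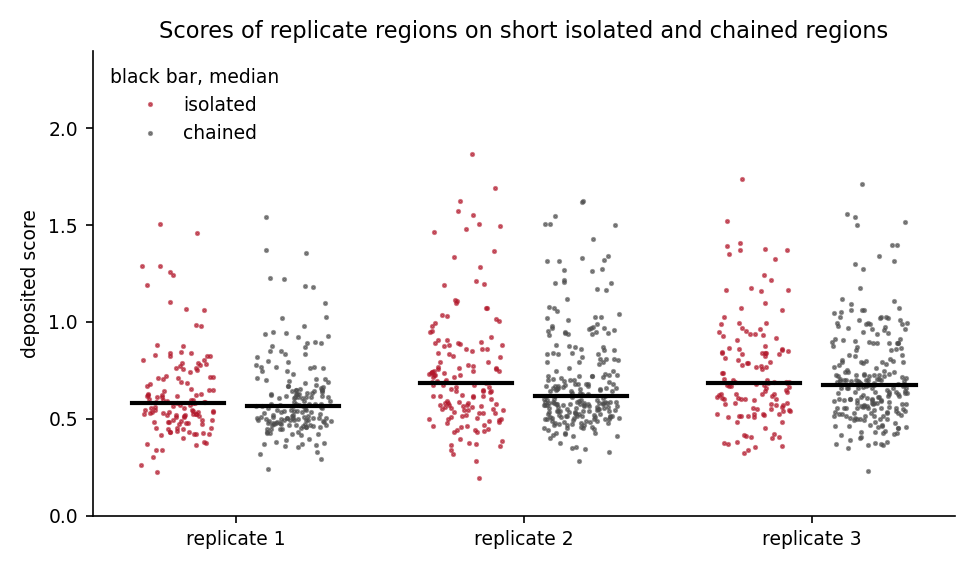
Deposited scores (y axis) of the replicate regions on short isolated and short chained regions, in each of 3 replicates. Each point is a combined region with the score of its replicate region, and black bars are medians. A replicate region that spans several chained regions is drawn once for each. The medians of isolated regions are 0.583, 0.685 and 0.687 and those of chained regions 0.566, 0.618 and 0.677, with wide overlap.

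Compared with chained regions of the same replicate width, in classes of 500 bp, the members scored slightly higher in 3 of 3 replicates. The width-matched median score was 0.633 for isolated and 0.628 for chained regions in replicate 1, 0.719 and 0.676 in replicate 2, and 0.746 and 0.671 in replicate 3. A replicate region spanning several chained regions was counted once for each of them. In replicate 3, for example, 1 region of 3889 bp gave its score to the chained regions on 2L starting at 2320127 and 2321854. The differences, isolated minus chained, were 0.00513, 0.0425 and 0.0750, and they averaged 0.0409 ± 0.0350 (SD, n = 3). Flipping their signs in an exact two-sided permutation test gave p = 0.25, which is as low as 3 replicates can go, and 0.5 after adjustment over the 4 differences computed. The direction turned, to -0.0748, among the 50% of regions with the higher scores, and to -0.0190 when combined regions under 1000 bp apart were merged before the rule was applied. With members narrower than 3000 bp the mean was 0.00432, and without replicate 3 it was 0.0204. The medians by width class did not all point the same way. For replicate regions of 1000 to 2000 bp the median scores of isolated and chained regions were 0.463 and 0.474 in replicate 1, 0.477 and 0.507 in replicate 2, and 0.521 and 0.497 in replicate 3. For those of 3000 to 4000 bp they were 0.803 and 0.737, 0.870 and 0.823, and 0.853 and 0.765 in the same 3 replicates. Calls of 4000 to 6000 bp, with 8 to 17 members a replicate, had 0.953 and 1.01 in replicate 1, 1.11 and 0.835 in replicate 2, and 0.965 and 0.880 in replicate 3.

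Replicate regions covered most of a member's bases on average, though not in every member. On average 70.7%, 87.9% and 75.3% of a member's bases were covered in replicates 1, 2 and 3, counting members without a call as 0. Width-matched chained regions were covered over 56.4%, 80.5% and 80.7%. The difference was 14.2, 7.43 and -5.42 percentage points and averaged 5.42 ± 9.99 (SD, n = 3), so it was within the spread between replicates and of opposite sign in replicate 3. Among members that were called, the covered share was 86.5% ± 4.69, against 81.3% ± 4.48 among called chained regions (SD, n = 3). It was 85.4% ± 4.63 among the other called short regions that were not chained (SD, n = 3). The rule asked for an overlap of 1 bp in at least 2 lists, so the covered share is in part fixed by it and no p is given.

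The edges of replicate regions on members lay close to those of the combined list, which stands for the same replicates, so closeness is in part built in. The median distance averaged 125 ± 42.5 bp for members and 129 ± 44.3 bp for the other short regions that were not chained (SD, n = 3). Where 1 replicate region matched 1 combined region, which held for 127, 141 and 126 of the called members, the median distance between their edges was 153, 76.0 and 146 bp for the members in replicates 1, 2 and 3. Replicate edges lay inside the combined region at 89.4%, 75.2% and 63.9% of edges, and the replicate region was 0.867, 0.947 and 0.948 times as wide as the combined one in the median. Replicate 1 therefore gave the narrowest calls on these regions.

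Set against chained regions of the same width, the edge distance of the members was smaller in replicates 1 and 2 and larger in replicate 3. It was 164 bp against 238 bp in replicate 1, 82.3 against 105 bp in replicate 2 and 144 against 138 bp in replicate 3. The mean difference was -30.2 ± 40.6 bp (SD, n = 3), and the same exact permutation test gave p = 0.5. This is within the spread between replicates. The edges of the combined regions also set the widths and gaps of the rule, so no conclusion is drawn from the test. The match of 1 to 1 kept 126 of 130 called members but 153 of 231 called chained regions in replicate 3, against 127 of 130 and 165 of 173 in replicate 1, so the chained set was reduced unequally.

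The 3 replicates put most members that each of them called in nearly the same place, which the choice by overlap in part fixes. For the 100 members with exactly 1 region in each list, the bases common to all 3 had a median of 2300 bp and the stretch from the first to the last called base 3174 bp. In the median member the common bases made up 79.5% of that stretch, and the 3 midpoints lay within 183 bp of each other. In 1 of the 100 the 3 regions had no base in common. The 116 chained regions with 1 region in each list had a common share of 75.7% and midpoints within 203 bp. For the 559 other short regions of this kind, not chained, these values were 79.0% and 217 bp. Nothing particular to isolation is read from them.

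The scores of these 100 members followed each other between replicates. Pearson's r was 0.901, 0.829 and 0.868 for replicates 1 and 2, 1 and 3, and 2 and 3, and Spearman's rho 0.827, 0.769 and 0.854. For the 116 chained regions Pearson's r was 0.894, 0.862 and 0.870. These are descriptions across regions that share their widths between lists, and no p was computed. In the median member the rank differed by 15.9 percentage points between its highest and lowest replicate.

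**Figure D3:**
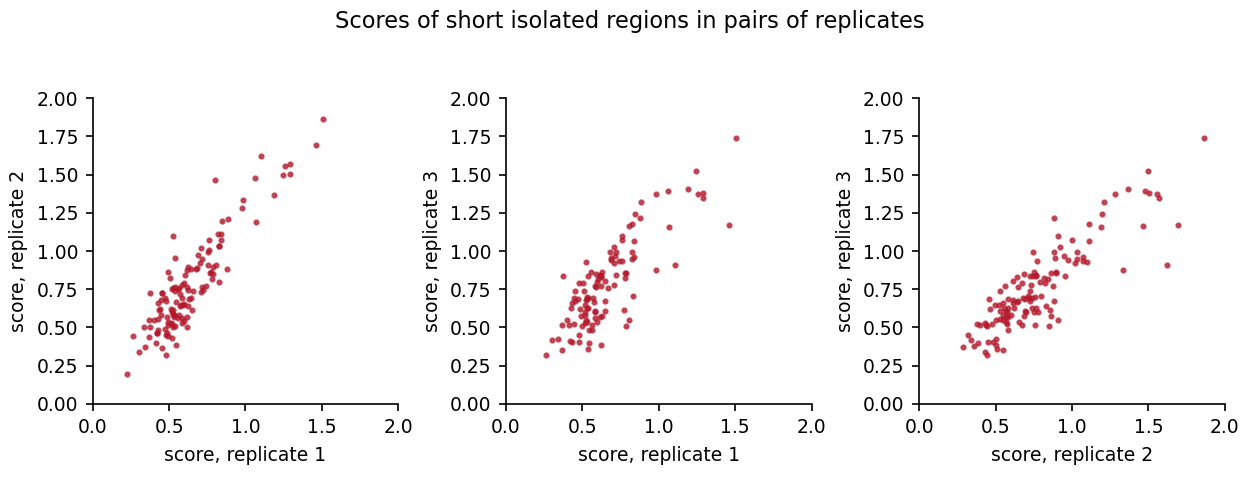
Deposited scores of short isolated regions in pairs of replicates (both axes, deposited scale); each point is a member called in both. Members with a high score in 1 replicate are high in the others, and Pearson's r over the 100 members with 1 region in each list is 0.901, 0.829 and 0.868.

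The regions on either side of a gap were of ordinary size. In the combined list, the 300 neighbours of the members had a median width of 3405 bp, with 64.0% under 5000 bp and 5.33% of 20 kb or more. The 482 neighbours of chained regions had a median width of 3186 bp, with 68.0% under 5000 bp and 4.36% of 20 kb or more. In the replicates' own lists, the median neighbour width was 3132, 3539 and 3296 bp for the members in replicates 1, 2 and 3, against 2981, 3055 and 3130 bp for chained regions. The difference was positive in 3 of 3 replicates, and averaged 267 ± 188 bp (SD, n = 3). The same exact permutation test gave p = 0.25, again its lower limit, and 0.5 after adjustment. Without replicate 2 the difference from chained regions was 12 bp. The median neighbour width in the replicates' own lists averaged 3322 ± 205 bp for the members (SD, n = 3). It averaged 3323 ± 160 bp for the other short regions that were not chained (SD, n = 3). Of the 300 neighbours in the combined list, 54 were themselves members and so under 5000 bp by the rule. Chained regions can also be each other's neighbours, and a neighbour shared by 2 regions was counted for each. The difference from chained regions is thus in part set by the rule, and no conclusion is drawn from its test.

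Members sometimes followed one another. Members stood at 54 of the 300 neighbour positions, counting a member between 2 others once for each, and at 121 positions the neighbour had both of its own gaps at or above 8000 bp. There were 100 members with no member beside them, 19 runs of 2 and 4 runs of 3. The runs of 3 lay on 3L from 18637223 to 18677659, and on 3R from 7069865 to 7236128, from 9638475 to 9729982 and from 25416916 to 25501398. The longest, 166 kb from 7069865 on 3R, was covered by combined regions over 6.37% of its length, and the last begins with the highest-ranked member. Because a member needs a wide gap on each side, a shared gap raises the chance that its neighbour is also a member, and the runs are a description.

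**Figure D4:**
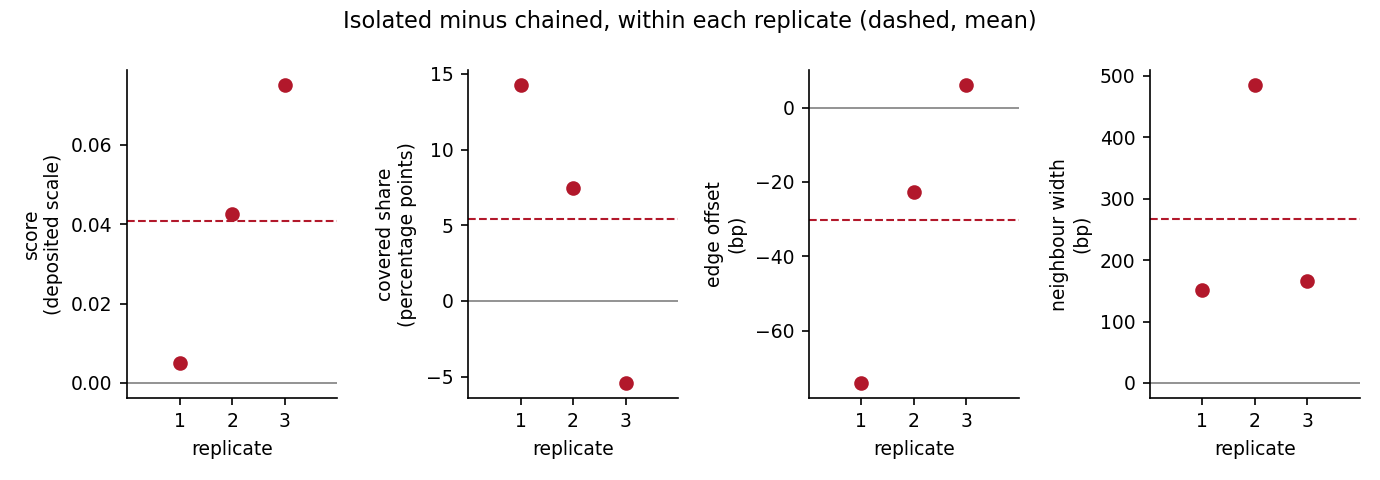
Isolated minus chained regions in each of 3 replicates (x axis), for the width-matched score (deposited scale), the covered share (percentage points), the edge offset (bp) and the width of neighbours (bp); the dashed line is the mean and the grey line 0. Score and neighbour width are above 0 in 3 of 3 replicates, while covered share and edge offset change sign in replicate 3.

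By arm, members were densest on 3R. The combined list held 2.55 members per Mb on 3R, 2.17 on 3L and 1.67 on 2L, while short regions in at least 2 lists were about equally dense, at 18.1, 18.7 and 19.0 per Mb. The isolated share of those short regions was 14.0% on 3R, 11.6% on 3L and 8.77% on 2L. The covered share of the same sequence was 31.5%, 31.8% and 31.1%, so the arms did not differ much in how much was called. The same rule on arms outside it gave 1.98 per Mb on 2R and 1.42 on X.

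Inside each replicate list, taking its own widths and gaps and an overlap with at least 1 other replicate, the counts were higher. There were 4.63, 3.32 and 3.71 isolated short regions per Mb on 3R in replicates 1, 2 and 3, against 4.17, 3.15 and 3.50 on 3L and 4.28, 3.00 and 2.86 on 2L. Arm 3R had the highest of these 3 densities in each replicate, and exceeded 2L by 0.507 ± 0.298 and 3L by 0.278 ± 0.160 per Mb (SD, n = 3). Arms 3L and 2L changed order in replicate 1. X was lower than 3R by 0.960, 0.921 and 1.65 per Mb. The rule used these lists, so no test was made. The order of 3R and 3L depended on the rule: with a gap threshold of 5000 bp the combined list gave 3.24 per Mb on 3R and 3.99 on 3L, and with a width limit of 3000 bp 1.20 and 1.24.

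**Figure D5:**
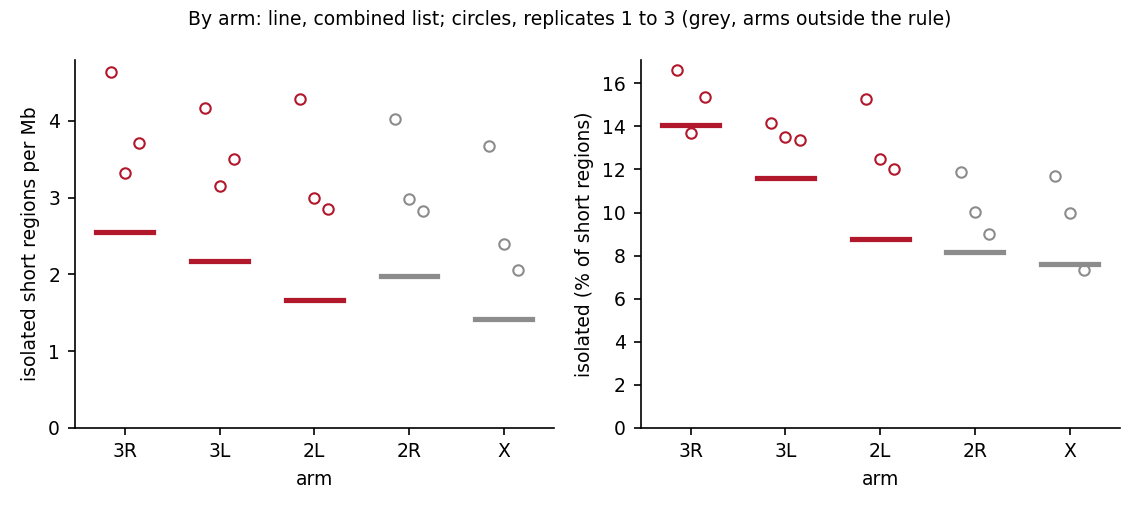
Isolated short regions per Mb (left) and as a percent of the short regions that met the overlap rule (right), by arm; thick lines are the combined list, circles replicates 1 to 3 from left to right, and grey marks arms outside the rule. Arm 3R has 2.55 per Mb and 2L 1.67 in the combined list, and 3R is the highest of the arms in each replicate.

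Along the arms, members were scattered. In 68 bins of 1 Mb, 8 held no member, 55 held 1 to 4 and 5 held 5 or more. The fullest was 3L at 7 to 8 Mb, with 6 members and 31.8% of its bases covered by combined regions. The 8 bins with no member had a median covered share of 31.3% and the 5 fullest 31.8%, and Spearman's rho between members and covered share across the bins was 0.0209, a description with no p. Counted from the centromeric end in steps of 4 Mb, 3R held 3.50 members per Mb from 6 to 10 Mb and 3.75 from 18 to 22 Mb, against 1.75 from 2 to 6 Mb and 1.75 from 14 to 18 Mb. On 3L the densest step was 14 to 18 Mb, with 3.75 per Mb, and on 2L 14 to 18 Mb, with 2.50. On 2L and 3L the step from 6 to 10 Mb held 1.00 per Mb.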

How the data were processed

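The authors deposited lists of enriched regions with a start, an end and a score, on FlyBase release 5 per the file headers. The submitters' processing notes name the aligner Bowtie 0.12.7. No source used here gives the region caller, its threshold, the pooling behind the combined list or the scale of the score, so differences of scores were taken only within a list, and ranks were used across lists. Read depth is unknown, and no interval for a single region can be given. No list of the 3 inputs was analysed here. Coordinates count from 1.

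No replicate region was narrower than 1301 bp and no combined region narrower than 1001 bp. A member's replicate region was the one with the largest overlap. Differences from chained regions, taken within a replicate, were standardised to the members' width classes of 500 bp, except for neighbour width, and tested over the 3 replicates by flipping signs in an exact two-sided permutation test, with Benjamini-Hochberg adjustment over 4 differences. The covered share was 1 of the 4, and its p is not given because the rule in part fixes it. Medians were used, and means for the covered share. Regions named are the 5 with the highest mean rank, the 5 with the largest smaller gap, the extremes of width and rank spread and those nearest the thresholds; runs, bins and the last region of 3R were named after their values were seen. The members and measures were chosen with earlier results of these data known, and the densities inside replicate lists were added after the arms were seen. Functions were tested on simulated data. Python 3.11.15, numpy 2.4.6, pandas 2.3.3 and scipy 1.17.1 were used.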

Additional observations from a re-analysis of the deposited data

How the results depend on the processing

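The number of members was 238 with a gap threshold of 5000 bp, 88 with 12000 bp and 79 with a width limit of 3000 bp; it was between 105 and 163 with overlap in all 3 lists, a 50% reciprocal overlap, the higher-scoring 50% of regions and merging of regions under 1000 bp apart. Without 1 replicate it was 110 to 125. Members per Mb on 2L, 3L and 3R were 3.05, 3.99 and 3.24 at 5000 bp, 0.999, 1.38 and 1.39 at 12000 bp and 0.952, 1.24 and 1.20 at 3000 bp wide; on 3L they were 1.38 with overlap in all 3 lists. Arm 2L was the lowest of the 3 in each of these settings. The share of members in all 3 lists was 55.7% with the width limit of 3000 bp, and the share isolated in the replicate's own list 99.5%. The score difference, isolated minus chained, was -0.0748 in the higher-scoring 50% and -0.0190 after merging, and 0.0204 to 0.0606 without 1 replicate. The covered share difference was -2.49 percentage points in the higher-scoring 50%, and 3.52 to 4.93 without 1 replicate. For the higher-scoring 50%, every list was cut before gaps were taken, so regions with lower-scoring neighbours could become isolated. The cause of these turns was not tested. Edge offsets stayed lower and neighbour widths higher for isolated regions under the alternatives run, from -122 to -1.41 bp and from 12 to 455 bp; against all other short regions, in place of chained ones, they were -3.21 and 49.2 bp, the covered share difference was 1.53 points and the score difference 0.0246. The exact permutation test cannot go below p = 0.25 with 3 replicates or 0.5 with 2. The differences reported pair the 2 sets within a replicate. Without the replicate block, an alternative added after seeing the data, the mean differences of score, covered share, edge offset and neighbour width stayed 0.0409, 5.42 points, -30.2 bp and 267 bp, and the exact two-sided permutation p was 0.3 for score, 0.7 for edge offset and 0.1, its lower limit, for neighbour width. Edge offset and neighbour width depend in part on the rule, so no conclusion is drawn from their tests. ChIP and input were not compared, since no list of the inputs was analysed here. Narrow regions near the threshold are the least certain, and without read depth their error is unknown.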
